A study of Mus musculus with 32 samples.

Results

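The collagen genes of 4 lymphoid tissues are described here, across peripheral lymph node, mesenteric lymph node, spleen and thymus of CD30L transgenic and wild type mice. A gene was taken as a collagen gene where a probe set's only gene symbol in the annotation table of the array read Col, a number, a and a number. By that rule 42 collagen genes with 82 probe sets were found among 18193 genes with a symbol of their own and 45037 probe sets. Where a gene had several probe sets, the one brightest on average across all 32 arrays stands for it. The transgenic mice (CD2-CD30L in the titles) overexpressed CD30L, a membrane-bound ligand of the TNF family, constitutively and specifically in T cells. Their non-transgenic littermates were the wild type controls. All mice were female C57BL/6 aged 12 weeks. There were 4 mice of each genotype, and since every one was sampled in all 4 tissues, the 8 groups hold 4 arrays apiece. The labels name no founder line, and whole tissue was hybridised, with the transgene in T cells and the collagens read in all cells together.

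Collagens are proteins of 3 chains wound into a triple helix. Fibrillar collagens (types I, III and V here) form the fibres of the reticular network, along which lymphocytes and fluid move in lymph node and spleen. Collagen IV forms the sheet of basement membranes around vessels, and collagen VI forms beaded filaments beside them. Fibril-associated collagens such as types XII, XIV and XVI sit on the surface of fibres. Collagens XV and XVIII are multiplexins, which carry sugar chains and lie at basement membranes. In lymphoid organs the reticular fibroblasts, vessel cells and capsule make most of this matrix, whereas lymphocytes are not a main source.

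The tissues matched their labels by defining markers. Psmb11, a proteasome subunit of thymic cortical epithelium, lay between 9.44 and 9.96 (log2) on the 8 thymus arrays, and Glycam1, of high endothelial venules, was at or below 0 on all spleen and thymus arrays. Transcripts of adjoining organs were present on a few arrays. In peripheral lymph node the mean of 15 skeletal muscle genes reached 9.60 in wild type mouse 1, 7.83 in wild type mouse 3 and 7.01 in transgenic mouse 1, against 5.27 on the lowest array. In mesenteric lymph node the mean of 14 exocrine pancreas genes reached 13.14 in wild type mouse 2, 12.47 in transgenic mouse 1 and 12.28 in transgenic mouse 3, against 5.09 on the lowest. Outside the nodes the highest muscle mean was 7.18, in thymus of wild type mouse 2. The highest pancreas mean there was 6.86, in spleen of wild type mouse 1. The ratio between the 3' and 5' probe sets of Actb, which rises as RNA is degraded, was 2.83 to 3.58 in spleens of mice 1 and 2 and 1.65 to 1.85 in those of mice 3 and 4. In mesenteric lymph node it was 3.1 in transgenic mouse 1 and 1.59 to 1.75 on the other arrays. Trimmed mean intensities of the arrays ran from 106 to 273, and arrays have no read depth, so the number of mice limits the precision.

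The promoters below belong to pairs of collagen genes whose products share a fibre or filament, or which lie side by side, and whose levels are given in the following paragraphs. Windows of 300 bases, from 250 bases before to 50 bases after the start of the gene, were taken from RefSeq (GRCm38.p6), which held a window for 33 of the 42 collagen genes. They were searched on both strands for the motifs CCAAT, then TATAAA, and also GGGCGG. Matches are in capitals. They can share bases, as a pair of GGGCGG matches does in the Col6a2 window. Of 32851 windows of this length in the table, 37.4% held CCAAT, 13.6% TATAAA and 35.7% GGGCGG. Among 36 collagen windows the numbers were 13, 5 and 22.

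Col1a2 (chr6:4505368-4505667, + strand) encodes the second chain of collagen I, and Col3a1 (chr1:45311288-45311587, + strand) the chain of collagen III. The Col1a2 window held 2 matches to CCAAT and 2 to GGGCGG, and the Col3a1 window 1 to TATAAA.
Col1a2: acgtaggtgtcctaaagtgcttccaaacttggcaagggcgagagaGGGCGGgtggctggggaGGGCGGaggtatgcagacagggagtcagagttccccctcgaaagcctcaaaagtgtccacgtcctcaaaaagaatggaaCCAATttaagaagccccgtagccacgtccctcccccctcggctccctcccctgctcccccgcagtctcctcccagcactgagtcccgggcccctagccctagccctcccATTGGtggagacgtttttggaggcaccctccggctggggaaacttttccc
Col3a1: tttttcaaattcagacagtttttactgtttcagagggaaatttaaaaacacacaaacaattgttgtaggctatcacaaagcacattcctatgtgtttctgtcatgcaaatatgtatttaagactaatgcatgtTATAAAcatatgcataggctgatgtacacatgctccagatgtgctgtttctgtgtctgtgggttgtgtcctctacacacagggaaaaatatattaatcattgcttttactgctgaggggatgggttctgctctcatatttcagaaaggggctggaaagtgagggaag

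Col4a1 (chr8:11312777-11313076, - strand) and Col4a2 (chr8:11312555-11312854, + strand) encode the main chains of collagen IV. They face away from each other on opposite strands, and 78 bases belong to both windows. The Col4a1 window held 1 match to CCAAT and 1 to GGGCGG, and the Col4a2 window 1 and 3.
Col4a1: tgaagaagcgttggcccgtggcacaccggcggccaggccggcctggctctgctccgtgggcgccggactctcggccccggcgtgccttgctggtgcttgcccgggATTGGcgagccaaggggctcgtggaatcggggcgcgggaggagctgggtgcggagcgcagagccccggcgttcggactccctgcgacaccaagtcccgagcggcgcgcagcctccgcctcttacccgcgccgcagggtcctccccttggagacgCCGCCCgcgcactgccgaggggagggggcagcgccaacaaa
Col4a2: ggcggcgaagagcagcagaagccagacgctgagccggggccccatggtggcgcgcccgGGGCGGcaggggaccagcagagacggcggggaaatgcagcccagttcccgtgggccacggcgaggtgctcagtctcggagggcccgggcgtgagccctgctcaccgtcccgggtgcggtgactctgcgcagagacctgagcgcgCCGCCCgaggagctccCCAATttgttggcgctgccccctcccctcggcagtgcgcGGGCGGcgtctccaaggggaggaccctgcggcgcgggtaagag

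Col6a1 (chr10:76725995-76726294, - strand) and Col6a2 (chr10:76623355-76623654, - strand) lie on the same chromosome and encode chains of the same collagen VI molecule. The Col6a2 window held 3 matches to GGGCGG, and the Col6a1 window none to the 3 motifs.
Col6a1: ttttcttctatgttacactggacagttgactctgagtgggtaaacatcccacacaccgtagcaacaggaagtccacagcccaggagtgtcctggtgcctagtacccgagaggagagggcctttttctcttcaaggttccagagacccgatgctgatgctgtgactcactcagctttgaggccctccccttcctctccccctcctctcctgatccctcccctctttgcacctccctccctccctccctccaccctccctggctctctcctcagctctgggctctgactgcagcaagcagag
Col6a2: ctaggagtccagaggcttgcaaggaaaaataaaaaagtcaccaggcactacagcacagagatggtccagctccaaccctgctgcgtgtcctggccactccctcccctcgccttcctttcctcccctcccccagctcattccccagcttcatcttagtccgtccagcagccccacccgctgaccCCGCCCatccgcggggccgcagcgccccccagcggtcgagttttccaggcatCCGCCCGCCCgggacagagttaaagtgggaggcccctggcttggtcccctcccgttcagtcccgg

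Levels are given as log2(intensity + 16) after quantile normalization over the 32 arrays, so that 4 is the floor at which an intensity of 0 or less is placed. As a yardstick of signal without transcript, chosen after the values were seen, 9 probe sets of 3 Y-linked genes in these female mice had group means of up to 6.34. In these terms 24 collagen genes lay above that level in at least 1 of the 8 groups, 12 of them in all 8, and 18 in none. The genes above it in all 8 groups were Col1a2, Col3a1, Col5a2 and Col27a1 of the fibrillar class, Col4a1 and Col4a2, Col6a1, Col6a2 and Col6a3, the anchoring fibril gene Col7a1, Col14a1 and Col18a1. Col10a1, a cartilage collagen, was at or below 0 on all 32 arrays, and Col9a2, also of cartilage, on 31. Col2a1, the main cartilage collagen, was at or below 0 on 18. Levels are compared only within a gene, since probe sets differ in brightness.

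Among the 24 genes above the yardstick, the highest wild type mean was in peripheral lymph node for 8, in mesenteric lymph node for 8 and in spleen for 8. It was in thymus for none, and thymus had the lowest mean for 17 of them, spleen for 4, mesenteric lymph node for 2 and peripheral lymph node for 1. These positions are a description, since fewer stromal cells in a tissue and less RNA per stromal cell cannot be told apart in whole tissue.

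**Figure D1:**
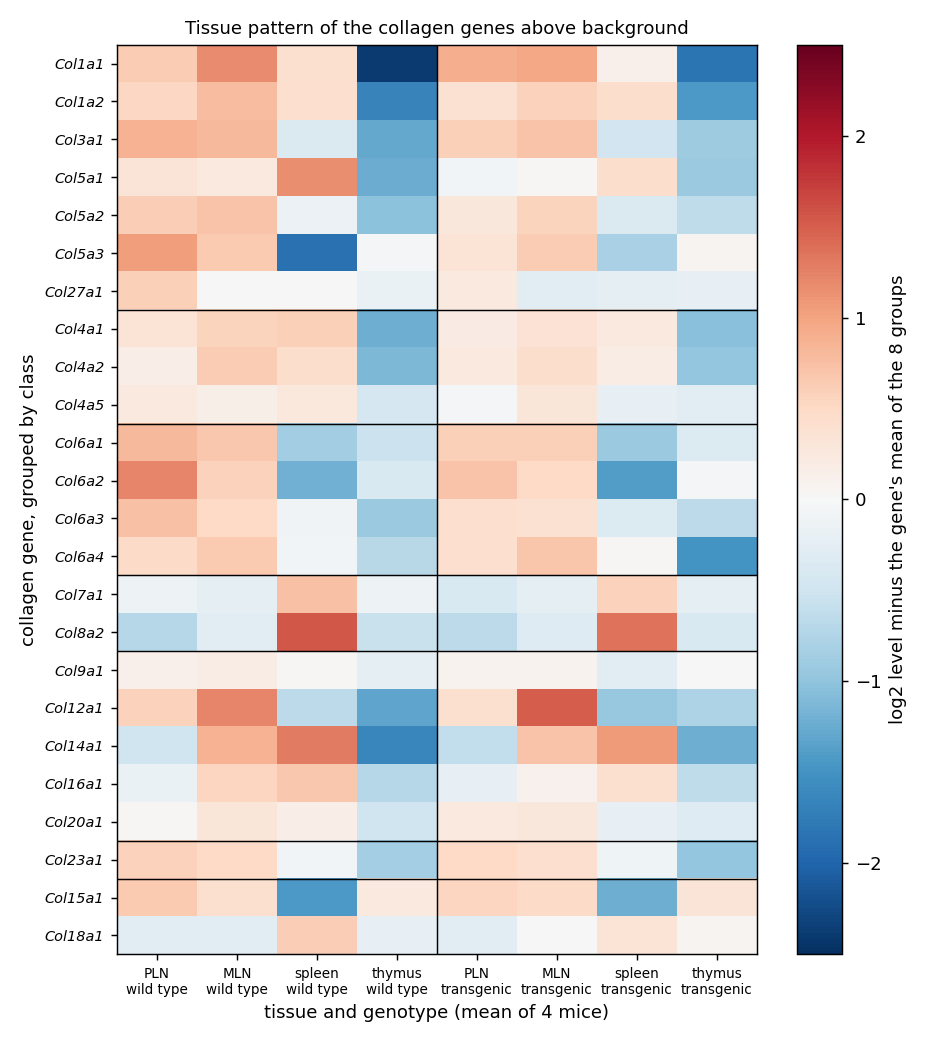
Group means of the 24 collagen genes above the yardstick, shown as the log2 difference from the gene's own mean of the 8 groups (red above, blue below), with tissues and genotypes in columns and genes grouped by class. In wild type mice the thymus column is the lowest for 17 of the 24 genes.

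Tissue differences were tested in the 16 wild type arrays with limma, and called at a Benjamini-Hochberg adjusted p under 0.05 over 27022 probe sets. Of the 42 collagen genes, 26 passed the filter on low intensity. Thymus against peripheral lymph node gave 19 collagen genes called, 0 higher and 19 lower in thymus, which is 73.1% of the tested collagens beside 57.3% of all probe sets tested (28.6% higher and 28.7% lower). Against mesenteric lymph node 18 were called, 1 higher and 17 lower in thymus, 69.2% beside 55.6% (29.1% higher and 26.6% lower). Against spleen 21 were called, 3 higher and 18 lower in thymus, 80.8% beside 50.5% (26.7% higher and 23.8% lower). The filter on low values favours genes that are high somewhere, and nothing is read from these shares about collagens as a class. Over the 13 main collagens of lymphoid stroma (Col1a1, Col1a2, Col3a1, Col5a1, Col5a2, Col4a1, Col4a2, Col6a1, Col6a2, Col6a3, Col14a1, Col15a1 and Col18a1), the median log2 difference of thymus was -1.57 against peripheral lymph node, -1.75 against mesenteric lymph node and -0.93 against spleen. The same medians over all probe sets tested were -0.01, 0.03 and 0.05.

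Spleen differed from the nodes in both directions. Against peripheral lymph node 15 collagen genes were called, 6 higher and 9 lower in spleen, 57.7% of those tested beside 39.3% of all probe sets (18% higher and 21.3% lower). Against mesenteric lymph node 14 were called, 6 higher and 8 lower in spleen, 53.8% beside 35.5% (17% higher and 18.5% lower). Between the nodes 3 collagen genes were called, 11.5% of those tested beside 2.77% of all probe sets, 2 higher and 1 lower in mesenteric lymph node (1.77% and 0.995% of all probe sets). That split was 1 to 0 on the values as deposited and 1 to 2 after scaling to a common median. The comparisons share arrays, since each tissue enters 3 of them.

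**Figure D2:**
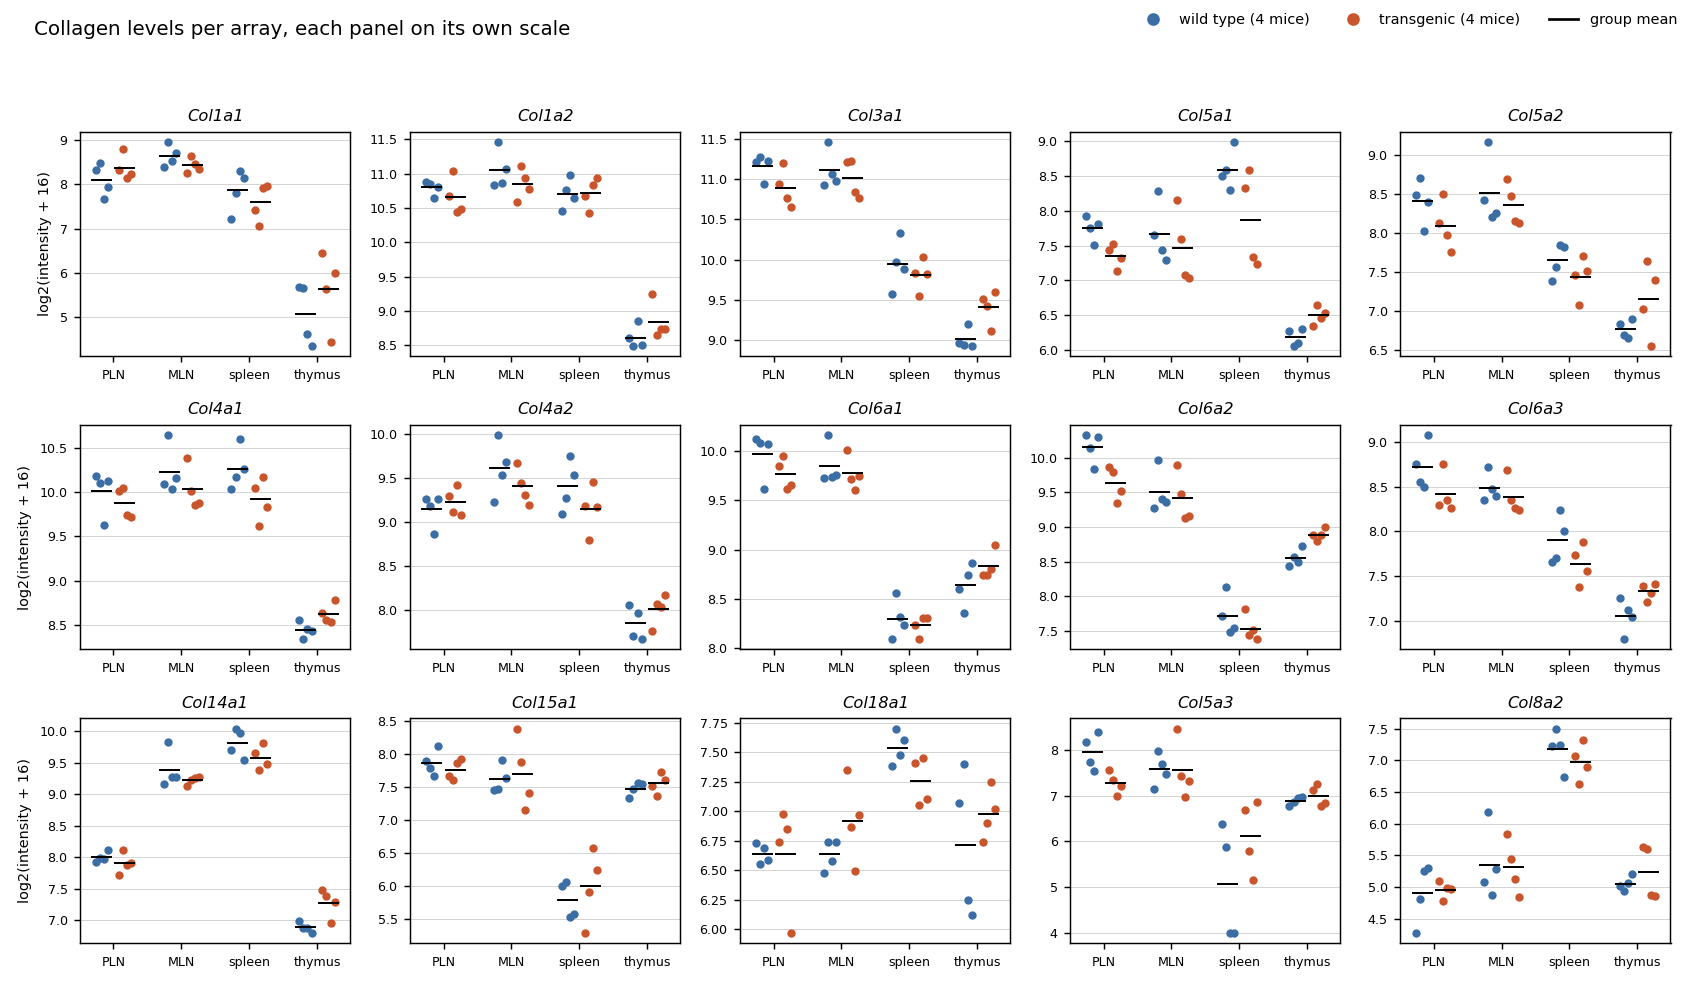
Level of 15 collagen genes on each of the 32 arrays, as log2(intensity + 16), in peripheral lymph node (PLN), mesenteric lymph node (MLN), spleen and thymus of wild type (blue) and transgenic (orange) mice. Points are arrays and bars are means of 4 mice. Col1a1 and Col1a2 are lowest in thymus, Col6a2 and Col15a1 lowest in spleen, and Col8a2 highest in spleen.

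The chains of collagens I and III, the bulk of reticular and capsular fibres, were lowest in thymus. Col1a2 read 10.88, 10.85, 10.65 and 10.81 on the wild type arrays of peripheral lymph node and 10.84, 11.46, 10.86 and 11.06 in mesenteric lymph node. It read 10.45, 10.76, 10.98 and 10.64 in spleen and 8.60, 8.49, 8.85 and 8.51 in thymus. All thymus arrays lay below all arrays of the other tissues, which overlapped among themselves. The log2 difference of thymus from peripheral lymph node was -2.19 ± 0.14 (SE, the same 4 mice in both tissues, adjusted p = 5.87e-09), a level 4.55-fold lower. The spleen difference from peripheral lymph node, -0.09 ± 0.14, did not pass the test (adjusted p = 0.659).

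Col1a1, whose product pairs with that of Col1a2, showed the same order with a wider spread. It read 8.32, 8.48, 7.67 and 7.94 in peripheral lymph node, 7.22, 7.81, 8.31 and 8.15 in spleen and 5.69, 5.65, 4.61 and 4.35 in thymus of wild type mice. The thymus values lie under the yardstick of the Y-linked probe sets, so that the difference of -3.02 ± 0.31 from peripheral lymph node (adjusted p = 7.44e-07) has a lower end that is not measured well. Against mesenteric lymph node it was -3.57 ± 0.31 and against spleen -2.79 ± 0.31.

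Col3a1, the collagen III gene, set spleen apart from the nodes as well. Its wild type arrays read 11.21, 11.27, 10.94 and 11.22 in peripheral lymph node, 9.57, 9.97, 10.33 and 9.89 in spleen and 8.97, 8.94, 9.20 and 8.93 in thymus. No array of 1 tissue overlapped those of another in this series of 3. Spleen was 2.33-fold lower than peripheral lymph node (log2 difference -1.22 ± 0.15, adjusted p = 1.93e-05), where Col1a2 did not pass the test, and thymus 4.44-fold lower (-2.15 ± 0.15, adjusted p = 1.33e-08). The difference between the nodes did not pass (-0.05 ± 0.15, adjusted p = 0.912).

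The 3 chains of collagen V, which regulates fibre width, followed 3 different patterns. Col5a1 was highest in spleen, with 8.5, 8.58, 8.3 and 8.99 on the wild type arrays against 7.92, 7.76, 7.51 and 7.81 in peripheral lymph node and 6.28, 6.06, 6.10 and 6.31 in thymus. Spleen lay above peripheral lymph node by 0.84 ± 0.19 (adjusted p = 0.00276) without overlap, and thymus had a log2 difference from spleen of -2.41 ± 0.19 (adjusted p = 4.89e-08), with its thymus mean of 6.18 under the yardstick. Col5a2 was instead lower in spleen than in peripheral lymph node (-0.75 ± 0.20, adjusted p = 0.00681), and lower still in thymus (-1.64 ± 0.20, adjusted p = 3.78e-06). On the values as deposited the spleen difference of Col5a2 was -0.62 with an adjusted p of 0.0791 and did not pass.

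Col5a3, the rarest chain, was lowest in spleen. Its wild type spleens read 6.38, 5.88, 4 and 4, the last 2 at the floor, against 8.17, 7.75, 7.54 and 8.40 in peripheral lymph node and 6.77, 6.86, 6.94 and 6.98 in thymus. The spleen difference from peripheral lymph node was -2.90 ± 0.44 (adjusted p = 0.000102), and thymus lay 1.82 ± 0.44 above spleen (adjusted p = 0.00259). Because 2 arrays were at the floor, the size of these differences is set partly by the floor. In transgenic mice, with spleens at 6.68, 5.78, 5.15 and 6.86, the difference of spleen from peripheral lymph node was -1.16 ± 0.35 (adjusted p = 0.0248).

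Col4a1 and Col4a2, whose promoter windows printed above overlap, were both lowest in thymus, as Col1a2 was. Any part of the overlap in their levels was not tested. Col4a1 read 10.18, 10.10, 9.63 and 10.13 in wild type peripheral lymph node, 10.03, 10.17, 10.60 and 10.26 in spleen and 8.56, 8.34, 8.46 and 8.43 in thymus. Col4a2 read 9.27, 9.19, 8.87 and 9.26, then 9.09, 9.28, 9.75 and 9.54, and then 8.06, 7.71, 7.97 and 7.67 in the same tissues. For either gene all thymus arrays lay below all others, while nodes and spleen overlapped. The thymus difference from peripheral lymph node was -1.56 ± 0.16 for Col4a1 (adjusted p = 6.91e-07) and -1.29 ± 0.17 for Col4a2 (adjusted p = 1.22e-05), and from spleen it was -1.82 ± 0.16 and -1.56 ± 0.17.

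Of the other collagen IV chains, Col4a5 was lower in thymus than in peripheral lymph node (-0.66 ± 0.18, adjusted p = 0.00567), with overlap of the arrays and the thymus mean under the yardstick. Col4a4 was called against spleen alone (-0.45 ± 0.17, adjusted p = 0.0365), and it did not exceed the yardstick in any group. Col4a3 and Col4a6, chains of specialised membranes such as those of the kidney, were at or below 0 on 8 and 18 arrays. In wild type mice no collagen IV gene was called between spleen and either node, with 4 of the 6 tested in each case, while Col4a5 was called lower in spleen than in mesenteric lymph node in transgenic mice.

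In collagen VI the lowest wild type mean was in spleen for Col6a1 and Col6a2, and in thymus for Col6a3. Col6a2 read 10.32, 10.13, 9.83 and 10.30 in wild type peripheral lymph node, 9.27, 9.96, 9.40 and 9.36 in mesenteric lymph node, 7.72, 8.14, 7.48 and 7.54 in spleen and 8.43, 8.56, 8.49 and 8.73 in thymus. Spleen lay 5.37-fold below peripheral lymph node (-2.42 ± 0.17, adjusted p = 5.88e-08), and thymus stood above spleen on every array (0.83 ± 0.17, adjusted p = 0.000841). On the values as deposited that last difference was 0.54 with an adjusted p of 0.0976.

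Col6a1 read 10.12, 10.08, 9.62 and 10.07 in peripheral lymph node, 8.09, 8.56, 8.32 and 8.23 in spleen and 8.60, 8.36, 8.74 and 8.86 in thymus. Spleen lay 3.19-fold below peripheral lymph node (-1.67 ± 0.15, adjusted p = 6.27e-07). Its thymus and spleen arrays overlapped, and the difference of 0.34 ± 0.15 did not pass (adjusted p = 0.0722), although it passed without wild type spleen mouse 2 (0.42, adjusted p = 0.0384) or without wild type thymus mouse 2 (0.43, adjusted p = 0.0333). Col6a3, the long chain of the same molecule, went the other way between these tissues, with 7.66, 7.71, 8.24 and 8 in spleen and 7.26, 6.80, 7.13 and 7.05 in thymus (-0.84 ± 0.16, adjusted p = 0.000351). Against peripheral lymph node it was lower in spleen (-0.82 ± 0.16, adjusted p = 0.000804) and in thymus (-1.66 ± 0.16, adjusted p = 3.06e-07).

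Col14a1 was lowest in thymus, next in peripheral lymph node, and higher in mesenteric lymph node and spleen. This collagen XIV binds the surface of collagen I fibres. Its wild type arrays read 7.93, 7.98, 7.97 and 8.12 in peripheral lymph node, 9.16, 9.83, 9.27 and 9.27 in mesenteric lymph node, 9.70, 10.04, 9.97 and 9.54 in spleen and 6.99, 6.88, 6.87 and 6.80 in thymus. Thymus, peripheral lymph node and the remaining tissues did not overlap, whereas spleen and mesenteric lymph node did. Mesenteric stood above peripheral lymph node by 1.38 ± 0.14 (2.61-fold, adjusted p = 5.22e-05), and spleen above peripheral lymph node by 1.82 ± 0.14 (3.52-fold, adjusted p = 1.44e-07). Spleen over mesenteric lymph node was 0.43 ± 0.14 (adjusted p = 0.0271), and that call was lost without any of 5 arrays, mesenteric lymph node of wild type mice 1, 3 or 4 and spleen of wild type mice 2 or 3 (0.36 to 0.39, adjusted p = 0.0699 to 0.0867). Thymus lay 7.62-fold below spleen (-2.93 ± 0.14, adjusted p = 1.85e-10).

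In the transgenic mice, which are other animals, Col14a1 was again higher in mesenteric than in peripheral lymph node (1.32 ± 0.13, adjusted p = 0.000101), and it was their only collagen called between the nodes, 3.85% of those tested beside 0.762% of all probe sets. Their arrays read 7.71, 8.12, 7.88 and 7.90 in peripheral and 9.13, 9.23, 9.26 and 9.27 in mesenteric lymph node. The wild type mesenteric array of mouse 2, at 9.83, also had the highest exocrine pancreas mean and was the highest for 13 of the 24 tested collagens in that tissue. In transgenic mice 2 and 4, with pancreas means of 5.09 and 5.36, Col14a1 was at 9.23 and 9.27.

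Col16a1 and Col12a1, of the same fibril-associated class, differed in pattern. Col16a1, with 7.12, 6.81, 6.53 and 6.39 in wild type peripheral lymph node and 7.25, 7.07, 7.74 and 7.65 in mesenteric lymph node, was higher in the latter by 0.71 ± 0.18 (adjusted p = 0.0441). The arrays overlapped, and with the mouse as a block the adjusted p was 0.094, at the same 0.71. On the values as deposited it was 0.56 with an adjusted p of 0.547. It was also lost in 6 of the 8 fits that left out 1 array of these groups (0.61 to 0.77, adjusted p = 0.0621 to 0.132), all but those without peripheral lymph node of mouse 1 or mesenteric lymph node of mouse 2. Col12a1, associated with dense tissue, was lower in spleen than in mesenteric lymph node (-1.86 ± 0.26, adjusted p = 7.11e-05) and in thymus than in mesenteric lymph node (-2.53 ± 0.26, adjusted p = 8.97e-07). Its wild type means of 5.71 in spleen and 5.04 in thymus lie under the yardstick, so that the sizes are not measured well.

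Of the network and anchoring collagens, Col8a2 and Col7a1 were highest in spleen. Col8a2, a chain of the short-chain collagen VIII, read 7.23, 7.5, 7.25 and 6.74 on the wild type spleen arrays and from 4.28 to 6.18 on all other wild type arrays, which lie under the yardstick. The log2 difference of spleen was 2.27 ± 0.27 from peripheral lymph node (adjusted p = 1.09e-05) and 1.82 ± 0.27 from mesenteric lymph node (adjusted p = 0.000105). Col7a1, of anchoring fibrils, read 8, 8.18, 8.02 and 8.05 in spleen against 7.10, 7.23, 7.16 and 7.34 in peripheral lymph node, a difference of 0.85 ± 0.12 (adjusted p = 6.81e-05), with no overlap.

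The multiplexins Col15a1 and Col18a1 went in opposite directions between spleen and peripheral lymph node. Col15a1 read 6.01, 6.06, 5.53 and 5.59 in wild type spleen against 7.90, 7.80, 7.68 and 8.13 in peripheral lymph node, 7.46, 7.47, 7.92 and 7.64 in mesenteric lymph node and 7.34, 7.47, 7.56 and 7.55 in thymus. Spleen stood apart from all other tissues and below the yardstick, at -2.08 ± 0.15 from peripheral lymph node (adjusted p = 5.09e-08), while thymus exceeded spleen by 1.68 ± 0.15 (adjusted p = 1.27e-07). Thymus against peripheral lymph node was called at -0.40 ± 0.15 (adjusted p = 0.0293), but with the mouse as a block its adjusted p was 0.0528, and 0.149 on the values as deposited. It was also lost without peripheral lymph node of wild type mouse 1 or 4 or thymus of wild type mouse 1 or 2 (-0.31 to -0.39, adjusted p = 0.0546 to 0.0955).

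Col18a1, the precursor of endostatin, read 7.38, 7.70, 7.48 and 7.6 in wild type spleen against 6.73, 6.55, 6.69 and 6.59 in peripheral lymph node, 0.90 ± 0.22 higher (adjusted p = 0.00449). In wild type thymus it read 7.07, 7.40, 6.25 and 6.12. Mice 1 and 2 lay above mice 3 and 4, whose Actb ratios were lower (1.4 and 1.34, against 1.78 and 1.68). In transgenic thymus it read 6.74, 6.90, 7.25 and 7.02, with ratios of 2.25, 2.23, 1.34 and 1.43. There mice 1 and 2 lay below mice 3 and 4. The part of RNA quality was not tested. In wild type mice thymus against peripheral lymph node did not pass (0.07 ± 0.22, adjusted p = 0.814). Among the remaining genes, Col23a1, a transmembrane collagen, was lower in thymus than in peripheral lymph node (-1.45 ± 0.26, adjusted p = 0.000185) with thymus under the yardstick, and Col27a1, a fibrillar collagen, was lower in mesenteric than in peripheral lymph node (-0.59 ± 0.11, adjusted p = 0.00677). On the values as deposited that Col27a1 difference was -0.80 with an adjusted p of 0.167. Col11a2, a fibrillar collagen, was called higher in spleen and in thymus than in mesenteric lymph node. Its wild type means there were 6.1, 6.1 and 4.94. It did not exceed the yardstick in any group, so that the sizes are not measured well. Col6a2 between the nodes, at -0.65 ± 0.17, narrowly missed the threshold (adjusted p = 0.0595) and passed it without mesenteric lymph node of wild type mouse 2 (-0.80, adjusted p = 0.0144) or peripheral lymph node of wild type mouse 3 (-0.75, adjusted p = 0.0409).

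The 16 transgenic arrays gave the same 6 comparisons in other animals. In thymus against mesenteric lymph node 18 collagens were called, and all were also called in the same direction in wild type (100% of either list), where 51.6% of all probe sets passed in transgenic mice. Thymus against peripheral lymph node had 16 called (background 48.8%), 14 of them shared with wild type, which is 73.7% of the wild type list and 87.5% of the transgenic list. Thymus against spleen had 16 called (background 47.8%) and 14 shared, 66.7% and 87.5% of the lists.

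Spleen against peripheral lymph node had 14 called in transgenic mice (background 25%) and 12 shared, 80% of the wild type and 85.7% of the transgenic list. Spleen against mesenteric lymph node had 14 called (background 27.7%) and 11 shared, 78.6% of either list. Between the nodes 1 was called (background 0.762%) and was shared, 33.3% of the wild type and 100% of the transgenic list. These backgrounds are shares of all probe sets called in transgenic mice. The share of all called probe sets repeated in both genotypes is not given, so the overlaps describe collagens alone. No collagen was called in opposite directions in the 2 genotypes in any of the 6 comparisons. Other probe sets of the called genes ran the same way, save 1 each of Col20a1 in thymus against mesenteric lymph node and of Col12a1 and Col4a5 in thymus against spleen, none of them called.

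**Figure D3:**
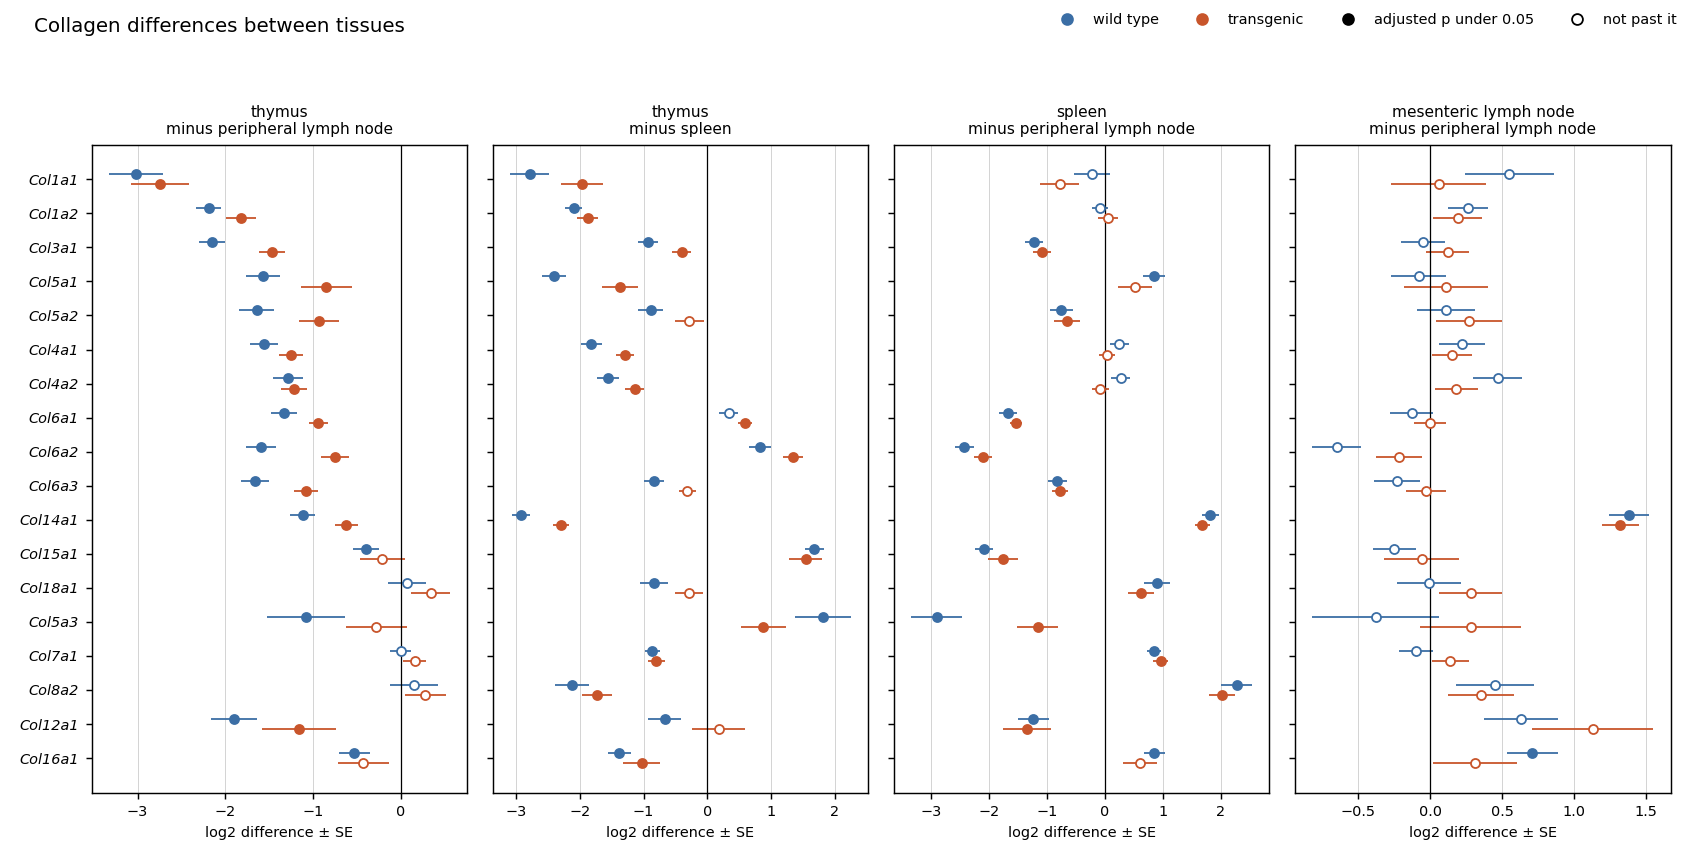
Log2 differences between tissues (x axis, ± SE) of 18 collagen genes in wild type (blue) and transgenic (orange) mice, 4 mice per group. Filled points passed an adjusted p of 0.05 and open points did not. Col1a1 and Col14a1 lie below 0 in thymus minus spleen, at -2.79 and -2.93 in wild type, while Col15a1 and Col6a2 lie above 0, at 1.68 and 0.83.

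Markers of other cells also differed between the tissues. Of 8 measured adipocyte genes 7 passed the filter, and all 7 were lower in spleen than in either node, lower in thymus than in either node and higher in thymus than in spleen, against the shares of all probe sets given above. The summed intensity of the 8 genes ran from 20400 to 31900 in peripheral lymph node, from 22500 to 35100 in mesenteric lymph node, from 644 to 1290 in spleen and from 4690 to 12600 in thymus, over both genotypes. Adipoq, which defines adipocytes, lay between 11.19 and 12.49 (log2) in the nodes, 4.18 and 6.26 in spleen and 8.44 and 10.32 in thymus, while Lep was at or below 0 on all spleen and thymus arrays. This order of nodes, thymus and spleen is that of the wild type means of Col15a1, Col6a1, Col6a2 and Col5a3 above. It is not that of the 8 collagens whose highest wild type mean was in spleen. All 5 measured genes of splenic mesenchyme were higher in spleen than in either node, beside 18% and 17% of all probe sets. Their median log2 differences were 3.21 from peripheral and 2.04 from mesenteric lymph node. The part of these cells in the collagen differences was not tested.

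Of 16 measured genes of reticular fibroblasts and other mesenchymal stroma, a list that holds no collagen, 15 were tested. In thymus 1 was higher and 11 lower than in peripheral lymph node, beside 28.6% and 28.7% of all probe sets. The median log2 difference was -1.23 over the 16. All 12 blood endothelial genes were lower in thymus than in either node, with medians of -2.69 and -2.47, and 11 were lower than in spleen (median -2.45). Of all probe sets, 28.7% were lower in thymus than in peripheral lymph node, 26.6% than in mesenteric lymph node and 23.8% than in spleen. Their summed intensity was 535 to 786 in wild type thymus and 3060 to 8820 in the wild type arrays of the other tissues. The part of these cells in the thymus differences was not tested.

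Without the lymph node arrays with the most muscle and pancreas transcripts, a choice made after seeing the data, the wild type counts were 17 collagens in thymus against peripheral lymph node, 18 in thymus against mesenteric lymph node, 15 in spleen against peripheral and 14 in spleen against mesenteric lymph node. Between the wild type nodes Col6a2 was then called (-0.87, adjusted p = 0.0249). Col16a1 lost its call there without the muscle arrays alone (0.82, adjusted p = 0.0643). The shares of all probe sets in these fits are not given, so the counts describe collagens alone.

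**Figure D4:**
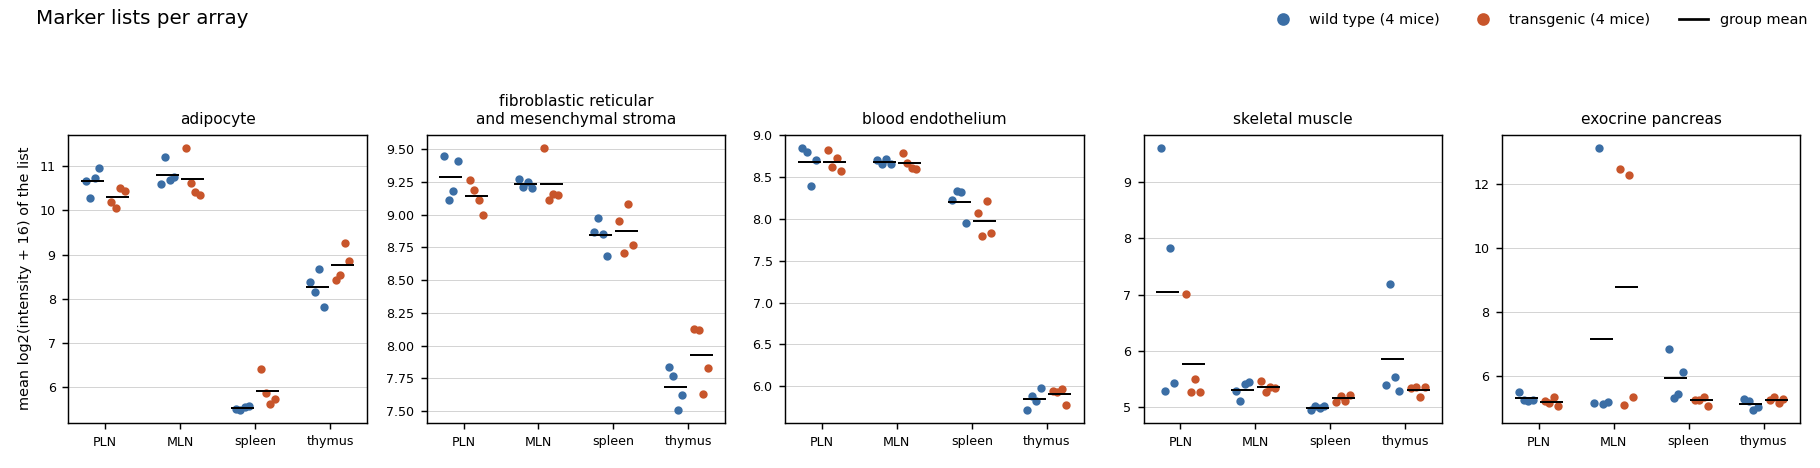
Mean log2(intensity + 16) of 5 marker lists on each of the 32 arrays, by tissue, in wild type (blue) and transgenic (orange) mice, with group means as bars. The adipocyte list is highest in the nodes and lowest in spleen, and blood endothelial genes are lowest in thymus. Muscle or pancreas genes stand out on single lymph node arrays, and muscle genes also in thymus of wild type mouse 2 (7.18).

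The comparison the study was built on, transgenic against wild type within a tissue, gave no collagen gene past the threshold in any tissue. In peripheral lymph node 24 collagens were tested and 0 called (0.037% of all probe sets passed), with 4 at an unadjusted p under 0.05 and 0.409 as the smallest adjusted p with limma. In mesenteric lymph node 24 were tested and 0 called (0% of all probe sets), with 1 at an unadjusted p under 0.05. In spleen 29 were tested and 0 called (0.0111%), with 3 at an unadjusted p under 0.05, and in thymus 22 were tested and 0 called (0.0037%), with 5. Unadjusted, 8.36%, 4.72%, 8.56% and 7.27% of all probe sets fell under 0.05 in these tissues, in the same order. A p over the threshold does not show that the genotypes were alike in any of these genes. The 4 arrays of 1 genotype lay entirely above or below those of the other for 0, 0, 2 and 2 tested collagens in these tissues, in the same order, beside 5.35%, 3.93%, 4.88% and 4.6% of all probe sets.

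In these genotype comparisons levels were normalized over the 8 arrays of a tissue. In peripheral lymph node the smallest p belonged to Col5a3, which read 8.30, 7.87, 7.64 and 8.53 in wild type and 7.66, 7.43, 7.08 and 7.29 in transgenic mice. The log2 difference was -0.72 ± 0.21 (adjusted p = 0.409), and the groups overlapped. Col6a2 (-0.51 ± 0.15) and Col5a1 (-0.42 ± 0.13), both with an adjusted p of 0.419 in limma, came next. Of the 13 main collagens 11 were lower in transgenic nodes after quantile normalization, 6 on the values as deposited and 10 after scaling to a common median. Their median log2 difference was -0.14, 0.02 and -0.17 under these scalings, beside -0.01, 0.18 and -0.02 over all probe sets tested. Over all 42 collagens the medians were -0.15, -0.02 and -0.22. The adipocyte mean was 10.28 to 10.97 in wild type and 10.06 to 10.51 in transgenic nodes, and the means of the T cell and thymocyte lists lay apart (10.49 to 10.64 against 10.23 to 10.47, and 7.30 to 7.42 against 7.15 to 7.29). Their part was not tested.

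In mesenteric lymph node the smallest p was that of Col16a1. This gene, at 7.08, 6.90, 7.58 and 7.49 in wild type and 6.86, 6.99, 6.71 and 6.71 in transgenic mice, differed by -0.44 ± 0.16 (adjusted p = 0.972). Col18a1 was at 0.28 ± 0.17 and Col12a1 at 0.31, both with the same adjusted p in limma. Here 11 of the 13 were lower in transgenic mice, 8 on the values as deposited and 8 with a common median. The medians were -0.16, -0.03 and -0.03, beside 0.01, 0.08 and 0.09 over all probe sets tested. Over all 42 collagens they were -0.06, -0.01 and -0.01.

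In spleen 11 of the 13 main collagens were lower in transgenic mice, 12 on the values as deposited and 12 with a common median, though none passed the test. Their medians were -0.23, -0.43 and -0.30, beside 0.01, -0.17 and -0.04 over all probe sets tested. Over all 42 collagens they were -0.11, -0.25 and -0.11. The smallest p was that of Col4a5, with 6.59, 6.93, 6.67 and 6.57 in wild type and 6.45, 5.98, 6.28 and 6.14 in transgenic mice. All transgenic arrays lay lower (-0.47 ± 0.14, adjusted p = 0.541 with limma). Col27a1 was the other collagen without overlap, also lower in transgenic spleens (-0.2 ± 0.10, adjusted p = 0.615). Col20a1 had the next smallest p (-0.37 ± 0.14, adjusted p = 0.564). Col5a1 read 8.56, 8.64, 8.37 and 9.06 in wild type and 8.40, 8.64, 7.44 and 7.35 in transgenic spleens, so that transgenic mice 3 and 4 lay low and mice 1 and 2 within the wild type range (-0.70 ± 0.31, adjusted p = 0.583). The difference was -0.08 in mice 1 and 2 alone and -1.32 in mice 3 and 4 alone, a split made after the values were seen. Mice 1 and 2 were those with the high Actb ratio in both genotypes. Wild type mice 3 and 4, at 8.37 and 9.06, lay on either side of wild type mice 1 and 2, at 8.56 and 8.64. The part of RNA quality was not tested.

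Marker lists of other cells parted by genotype in spleen without overlap. The mean of 8 red pulp and erythroid genes was 10.61 to 10.95 in wild type and 10.14 to 10.56 in transgenic spleens, and their summed intensity 26600 to 31600 and 16600 to 23400. The mean of 5 T cell genes was 8.92 to 9 and 9.23 to 9.64, that of 8 adipocyte genes 5.49 to 5.58 and 5.63 to 6.42, with Lep at or below 0 throughout, and that of 15 skeletal muscle genes 4.96 to 5.02 and 5.10 to 5.22. All these skeletal muscle means lay under the yardstick of 6.34, and so did the adipocyte means save the 6.42. Tnnc2 and Actn3 of the muscle list were at or below 0 on all spleen arrays. The muscle and adipocyte gaps thus lie near background and do not measure muscle or fat content. The stroma mean overlapped, at 8.68 to 8.97 and 8.71 to 9.08. The part of these cells in the spleen differences was not tested.

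In thymus all 13 main collagens were higher in transgenic mice under each of the 3 scalings, though none passed the test and Col1a1 was too dim there to be tested. Their median log2 difference was 0.27 after quantile normalization, 0.37 on the values as deposited and 0.27 with a common median. Over all 42 collagens, 18 of them never above the yardstick, 31 were higher after quantile normalization. Their medians under the 3 scalings were 0.11, 0.2 and 0.1. The medians over all probe sets tested were 0.00, 0.09 and -0.01. Col6a2 read 8.38, 8.52, 8.44 and 8.68 in wild type and 8.83, 8.74, 8.83 and 8.95 in transgenic thymus, without overlap (0.33 ± 0.10, adjusted p = 0.609). Col3a1 read 8.92, 8.89, 9.15 and 8.88 against 9.47, 9.37, 9.07 and 9.55 (0.40 ± 0.12, adjusted p = 0.636), with transgenic mouse 3 inside the wild type range. Col14a1 read 6.97, 6.86, 6.86 and 6.79 against 7.45, 7.35, 6.95 and 7.27 (0.38 ± 0.12, adjusted p = 0.636).

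Col5a1 was the other thymus collagen without overlap, at 6.28, 6.08, 6.11 and 6.32 in wild type and 6.36, 6.65, 6.46 and 6.53 in transgenic mice (0.30 ± 0.10, adjusted p = 0.638). The genes of a set are measured on the same 8 arrays and are not independent. Beside these values, the adipocyte mean was 7.82 to 8.68 in wild type and 8.43 to 9.27 in transgenic thymus, and the stroma mean 7.51 to 7.84 and 7.63 to 8.13. The Actb ratio was 1.78, 1.68, 1.4 and 1.34 in wild type and 2.25, 2.23, 1.34 and 1.43 in transgenic thymus of mice 1 to 4. Their part was not tested.

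**Figure D5:**
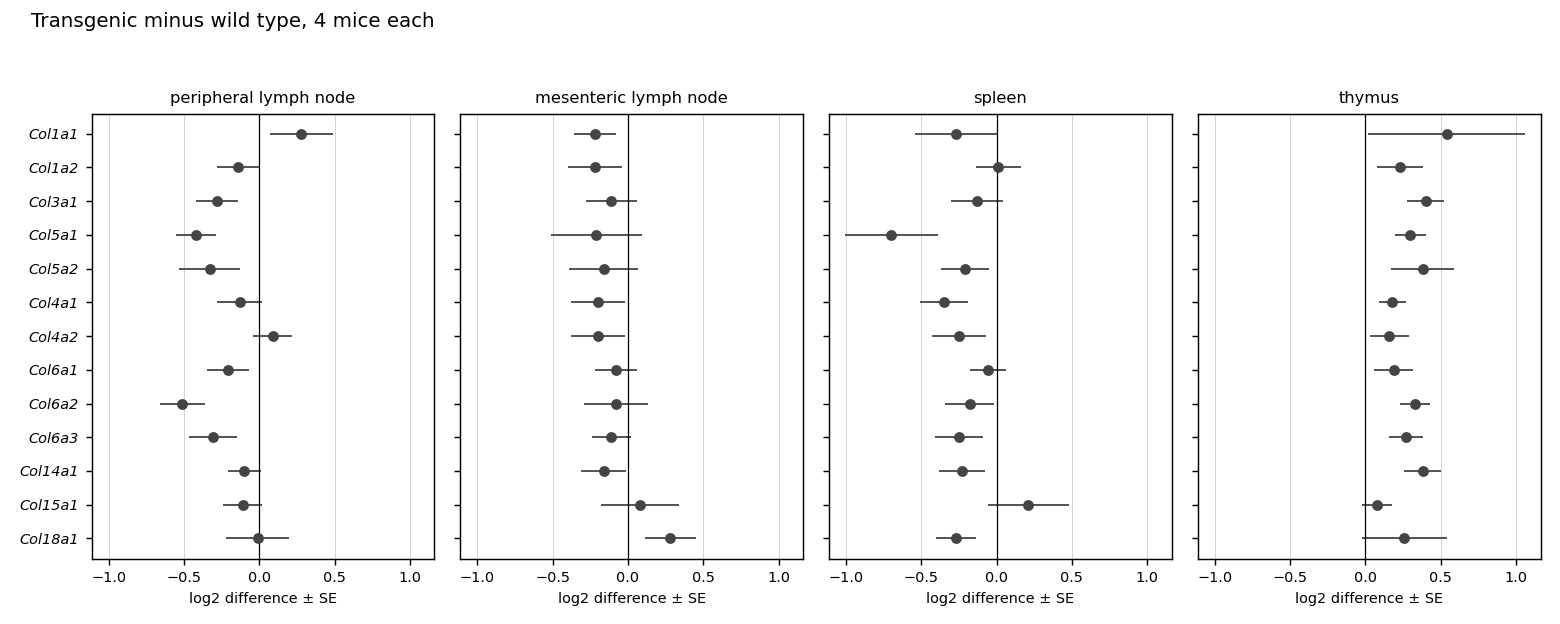
Log2 difference of transgenic from wild type mice (x axis, ± SE, 4 mice each) for 13 collagen genes in each tissue. No point passed an adjusted p of 0.05. In thymus all 13 lie above 0 with a median of 0.27, beside 0.11 over all 42 collagens.

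Whether the genotype difference itself varied between tissues was tested on each mouse's difference between 2 tissues. No collagen was called in any of the 6 pairs, where at most 0.0111% of all probe sets passed in 1 pair (thymus against spleen) and 0% in the others, with 26 collagens tested in each. For thymus against peripheral lymph node 7 collagens had an unadjusted p under 0.05, beside 9.71% of all probe sets, and for thymus against spleen 7, beside 8.46%. The smallest p in the first pair was that of Col5a1, whose difference was 0.72 ± 0.14 (adjusted p = 0.322 in limma). The thymus difference from peripheral lymph node was -1.57 in wild type and -0.85 in transgenic mice.

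In the other pairs the smallest p belonged to Col12a1 between the nodes (0.49 ± 0.18, adjusted p = 0.84) and to Col5a3 between spleen and peripheral lymph node (1.74 ± 0.61, adjusted p = 0.592), with 2 of the 4 wild type spleens at the floor. Col4a5 had it between spleen and mesenteric lymph node (-0.64 ± 0.14, adjusted p = 0.653) and between thymus and spleen (0.60 ± 0.16, adjusted p = 0.536). Col14a1 had it between thymus and mesenteric lymph node (0.56 ± 0.21, adjusted p = 0.982). The pairs share tissues and are not independent of each other.

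The partners of collagen were read from 5 lists. Among genes of collagen folding, processing and cross-linking, 26 of 35 were tested, and 2 were higher and 18 lower in wild type thymus than in peripheral lymph node, where 28.6% of all probe sets were called higher and 28.7% lower. Loxl1, an enzyme of the lysyl oxidase family that cross-links fibres, stood at -3.67 ± 0.24 (adjusted p = 4.33e-09) with thymus under the yardstick, and Pcolce, which speeds removal of the procollagen tail, at -3.33 ± 0.11 (adjusted p = 5.21e-12). P3h4, of the collagen hydroxylation machinery, was higher in thymus by 0.42 ± 0.10 (adjusted p = 0.00196). In spleen against peripheral lymph node 2 were higher and 14 lower, beside 18% and 21.3% of all probe sets, among them Plod3, a lysyl hydroxylase (-0.91 ± 0.14, adjusted p = 0.000169).

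Of 10 tested collagen receptors, 2 were higher and 5 lower in thymus than in peripheral lymph node, beside the same 28.6% and 28.7% of all probe sets. Itga1, the alpha chain of a collagen-binding integrin, stood at -2.26 ± 0.14 (adjusted p = 3.06e-09) with thymus under the yardstick, and Ddr2, a receptor kinase for fibrillar collagen, at -2.05 ± 0.10 (adjusted p = 2.94e-10). Ddr1, its epithelial relative, was higher in thymus at 0.41 ± 0.14 (adjusted p = 0.023). In spleen against peripheral lymph node Ddr1 was higher (0.81 ± 0.14) and Ddr2 lower (-1.56 ± 0.10).

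Basement membrane partners did not follow collagen IV throughout. In thymus against peripheral lymph node 2 of 10 tested were higher and 6 lower, again beside 28.6% and 28.7%. Nid1, which links laminin to collagen IV, was lower (-2.48 ± 0.17, adjusted p = 1.11e-08), as Col4a1 and Col4a2 were. Lama3 and Lamb3, chains of an epithelial laminin, were higher in thymus (1.89 ± 0.20, adjusted p = 9.47e-07, and 2.08 ± 0.26, adjusted p = 6.09e-06), with both under the yardstick in peripheral lymph node. In spleen against peripheral lymph node, where Col4a1 and Col4a2 did not pass, the laminin chain Lamb1 was lower (-1.75 ± 0.12, adjusted p = 3.35e-08), with spleen under the yardstick.

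Of 18 tested fibril partners, 6 were higher in thymus than in spleen and 9 lower, beside 26.7% and 23.8% of all probe sets. Tenascin-X (Tnxb) was lower in thymus, at -4.30 ± 0.30 (adjusted p = 1.09e-08), and tenascin-C (Tnc) higher, at 4.27 ± 0.29 (adjusted p = 9.78e-09). The lower tissue of each, thymus for Tnxb (4.89) and spleen for Tnc (5.25), lay under the yardstick, so that these sizes are not measured well. Biglycan (Bgn), a small proteoglycan of fibres, was lower (-2.97 ± 0.10, adjusted p = 3.66e-12). Lumican (Lum), a proteoglycan that binds collagen I, was higher in mesenteric than in peripheral lymph node (1.97 ± 0.16, adjusted p = 3.8e-06), as Col14a1 was. Of collagen breakdown, 1 of 12 tested was higher in thymus than in peripheral lymph node, the cathepsin Ctsl (1.23 ± 0.10, adjusted p = 4.5e-08), and 8 were lower, beside 28.6% and 28.7% of all probe sets. The lower ones included the fibroblast protease Fap (-2.12 ± 0.11, adjusted p = 6.68e-10, thymus under the yardstick) and the inhibitor Timp2 (-2.23 ± 0.19, adjusted p = 1.02e-07).

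By genotype no gene of the 5 partner lists was called in any tissue. The smallest adjusted p with limma was 0.258, for Fkbp14, a folding enzyme of procollagen, in peripheral lymph node (-0.60 ± 0.13), and 0.422 in spleen, for periostin (Postn), a fibre-binding protein (1.03 ± 0.19). In thymus it was 0.427, for Thbs2, a thrombospondin (0.43 ± 0.08), and in mesenteric lymph node 0.972 in each list.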

How the data were processed

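The protocol in the labels names RNeasy total RNA, of which 5 µg was biotinylated and hybridised to Affymetrix arrays. The deposited values are linear intensity readings of 45101 probe sets, 14.9% to 18.4% of them negative per array. The sources used here do not give the algorithm, software or scaling. Intensities below 0 became 0, and log2(intensity + 16) was used, which understates fold changes of dim genes. After 64 control probe sets were removed, the 40th percentile of mean level served as filter and left 27022. For genotype the 8 arrays of a tissue were quantile normalized and fitted with limma 3.58.1 in R 4.3.3. For tissues the 32 arrays were normalized together and the 16 arrays of a genotype fitted. Genotype effects were compared between tissues with limma on each mouse's differences. All adjusted p-values are limma's, after Benjamini-Hochberg over all probe sets tested.

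Gene symbols were read from the array's annotation, in which 34945 probe sets hold 1 symbol, 932 several and 9160 none. The genes named are the 13 main collagens, the 3 smallest p of each genotype comparison, the 5 largest called rises and falls of each wild type tissue comparison, the smallest p of each difference of effects, and up to 2 partners in each direction. Others (Col4a3, Col4a4, Col4a6, Col2a1, Col9a2, Col10a1, Col23a1) were named outside this rule, after their values were seen. The members, lists and tests were chosen with earlier results of these data known.

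The labels number the mice, and a mouse's tissues are paired by that number, although its deviations from the group means correlated little between tissues (median r = 0.0181 over 48 pairs, against -0.00714 over 144 pairs of different mice). The block for the mouse was an alternative. The fits were tested on simulated data. Alternatives were other pseudocounts (1 and 64), scalings, filters and left-out arrays. P-values measure the spread between these mice.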

Additional observations from a re-analysis of the deposited data

Results flagged for a closer look

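Of 162 groups of 4 arrays, 9 held an array whose gap to the nearest of the others took up most of the group's range, beyond Dixon's critical value. Chance alone gives about 1 in 20. The values are log2(intensity + 16), normalized within the tissue.

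Transgenic mouse 4 was low for Col12a1 in both nodes, at 6.38 in peripheral lymph node against 6.93 as the nearest, and at 7.27 in mesenteric lymph node against 7.85. Wild type mouse 2 was high in mesenteric lymph node for Col14a1, at 9.67 against 9.11, and for Col6a1, at 10.01 against 9.60, on the array with the highest pancreas mean. Wild type mouse 3 was low in peripheral lymph node for Col4a1, at 9.78 against 10.25, and for Col6a1, at 9.77 against 10.23. Its blood endothelial mean, at 8.39, was the lowest of the 8 arrays of that tissue.

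The remaining 3 were single arrays. Col1a2 was high in thymus of transgenic mouse 1, at 9.20 against 8.70. Col3a1 was high in thymus of wild type mouse 3, at 9.15 against 8.92, and Col4a5 in mesenteric lymph node of transgenic mouse 1, at 6.76 against 6.37. That mesenteric array had an Actb ratio of 3.1 and a pancreas mean of 12.47.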

How the results depend on the processing

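No collagen was called by genotype, or for a difference of the genotype effect between tissues, under any setting that was run, including the mouse number as a replicate block, with 0 called in all 4 tissues. The labels do not say what a number shared by both genotypes marks. Between genotypes, spleens of the same number had a median r of 0.224 in their deviations from the group means (3 of 4 pairs over 0.1) and the other tissues -0.121 to 0.0659, and 3, 1, 4 and 3 of 8 arrays in peripheral and mesenteric lymph node, spleen and thymus were closest to their own number. With the mouse as a replicate block in the tissue comparisons, 17 collagens were called in wild type thymus against peripheral lymph node and 21 against spleen, and of the genes named only Col16a1 between the nodes and Col15a1 in thymus against peripheral lymph node lost their call.

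No called difference changed sign. Counts of called collagens moved by over 1.5 times in 11 fits. The shares of all probe sets under the settings of this section are not given, and the counts describe collagens alone. Requiring a change of at least 1 on the log2 scale as well left, in wild type, 1 between the nodes, 8 in spleen against peripheral and 8 against mesenteric lymph node, and 10 in thymus against spleen. In transgenic mice it left 8 and 7 for spleen against these nodes, and 9 and 11 for thymus. On the values as deposited 1 was called between wild type nodes. With a pseudocount of 64 there were 2 between transgenic nodes, and with a filter at the 60th percentile 9 in transgenic spleen against mesenteric lymph node, where fewer genes were tested.

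Leaving out 1 array at a time moved no count of called collagens by over 1.5 times. It ranged from 16 to 19 in wild type thymus against peripheral lymph node and from 17 to 20 against spleen. On the values as deposited the median log2 difference of all probe sets was lowest at -0.33 (mesenteric against peripheral lymph node, transgenic). It was highest at 0.33 (spleen against mesenteric lymph node, wild type). In the main fits these medians were -0.02 and -0.03. The Col6a3 difference in wild type spleen against mesenteric lymph node was then, as deposited, -0.20 with an adjusted p of 0.517 in limma. Dim collagens are limited by signal over background, since 18 of the 42 never exceeded the highest Y-linked group mean of 6.34. The median Y-linked group mean was 4.31.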
